A study of Mus musculus with 22 samples.

Results

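The miR-297, miR-466, miR-467 and miR-669 families were measured by 33 of the 566 mouse miRNA probes on the panel, namely every endogenous probe whose name holds 1 of these 4 family names. Of the 33 probes, 4 carry joined names because they detect several miRNAs, so that 39 miRNA names are covered. Members of these families differ from each other by few bases, and a count may therefore hold reads of a close relative; counts of single members are uncertain to that extent.

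Total RNA came from the 4th left mammary gland of female C57BL/6 mice that had entered the study at 4 to 5 weeks of age and had received 1 of 4 diets for 3 weeks. The diets were basal AIN-93G (a purified rodent diet), a diet with 10% flaxseed, a diet with 3.67% flaxseed oil and a diet with 0.15% SDG (secoisolariciresinol diglucoside, the lignan of flaxseed). The assay was the NanoString nCounter, which counts each miRNA through a fluorescent barcode without amplification, with 1 gland in each lane. Of 6 mice randomized to each diet, 5 basal, 6 flaxseed, 5 oil and 6 SDG lanes were analysed; basal 5 and oil 5, which the authors had excluded, were not analysed here. The question was whether the whole seed, its oil or its lignan alters mammary miRNAs.

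Sfmbt2 encodes a polycomb group protein and is known in mouse for expression from the paternal allele. Whether this holds in the mammary gland was not measured here. One of its introns holds a tandem array of miRNA genes that is found in rodents and is best known for its expression in placenta and in embryonic stem cells. Many of its miRNAs, and their relatives elsewhere in the genome, consist largely of alternating U and G or alternating C and A bases. A miRNA recognizes its target messenger RNAs mainly through its seed, bases 2 to 8 from the 5′ end, and members with different seeds are therefore expected to bind different sites.

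The family names did not coincide with the Sfmbt2 array. By the RefSeq gene names, 25 of the 33 probes detect miRNAs whose genes all lie within Sfmbt2, 5 detect miRNAs whose genes all lie elsewhere (miR-466i, miR-466j, miR-466k, miR-467f and miR-467g), and 3 joined or multi-copy probes detect both kinds. Both miR-466a names matched no gene name, and their joined probes were placed by the partner miRNA. RefSeq places 71 miRNA genes of the 4 families within Sfmbt2 and 10 elsewhere. The probes are therefore described as the 4 families and not as products of 1 intron.

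In RefSeq (GRCm38.p6) a mature sequence was found for 5 of the 39 miRNA names, and these 5 are printed. Their genes all lie outside Sfmbt2, so no miRNA of the array is shown. The 5 sequences include both repeat types of the families. They are written 5′ to 3′ with the seed in capitals. 
miR-466j: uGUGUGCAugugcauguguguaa
miR-466k: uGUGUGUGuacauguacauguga
miR-467f: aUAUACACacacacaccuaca
miR-467g: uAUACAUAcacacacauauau
miR-467h: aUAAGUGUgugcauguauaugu
They lie at chr10:60960802-60960824 (miR-466j, plus strand), chr3:85467396-85467418 (miR-466k, plus strand), chr11:69635419-69635439 (miR-467f, minus strand), chr5:34732872-34732892 (miR-467g, minus strand) and chr9:115381898-115381919 (miR-467h, plus strand). The 5 seeds differ from one another. Among the 1679 mature mouse miRNAs of the table, 28 (1.67%) hold UGUGUG and 12 (0.715%) hold CACACA, searched on the strand of the miRNA alone. UGUGUG was found in 3 of the 5 printed members (miR-466j, miR-466k and miR-467h), and CACACA in the other two, miR-467f and miR-467g. Of the 5, miR-467f was above background in 18 of 22 lanes. The other four probes, including the joined probe of miR-467h with miR-669d and miR-669l, were above background in no lane.

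Background was set in each lane as the mean plus 2 SD of its 8 negative control probes, which came to 17.5 to 66.8 counts. Total endogenous counts ran from 260551 in SDG 1 to 762146 in basal 6. In 3 lanes (basal 1, flaxseed 3 and SDG 5) miR-720, a tRNA-derived fragment, held 47.4 to 65.4% of endogenous counts, against 2.37 to 8.61% in the others, and their thresholds of 17.5 to 22.4 counts were low. The tissue label was checked on cell type markers: all 5 luminal miRNAs of the miR-200 family and both basal epithelial miRNAs (miR-205 and miR-203) were above background in every lane.

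Most members were not detected in the mammary gland. Of the 33 probes, 18 (54.5%) were above background in no lane, against 40.5% of all mouse probes. Detection in 1 to 4 lanes was seen for 7 members (21.2%, against 14.8% of all mouse probes), and detection in 5 to 21 lanes for 6 (18.2%, against 20.0%). Only miR-297c and miR-466g (6.06% of members, against 24.7% of mouse probes) were above background in all 22 lanes. A count under the threshold says that the miRNA was not detectable at this background, not that it was absent.

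Detection was spread over all families. Among 12 probes of the miR-466 family alone, 4 were above background in at least 1 lane: miR-466g in 22, the miR-466a-3p+miR-466b-3-3p probe in 7, the miR-466a-5p+miR-466e-5p probe in 3 and miR-466h in 1. Among 7 probes of the miR-467 family, 5 were seen, with miR-467f in 18 lanes, miR-467b in 7, miR-467a and miR-467e in 4 each and miR-467c in 2. Among 9 probes of the miR-669 family, 4 were seen, with miR-669a in 14 lanes, miR-669f in 12, miR-669o in 3 and miR-669h-5p in 2. Of the 3 probes of the miR-297 family alone, miR-297c was detected and both arms of miR-297b were not. The joined probe of miR-297a, miR-466f and miR-669b was above background in 19 lanes.

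**Figure D1:**
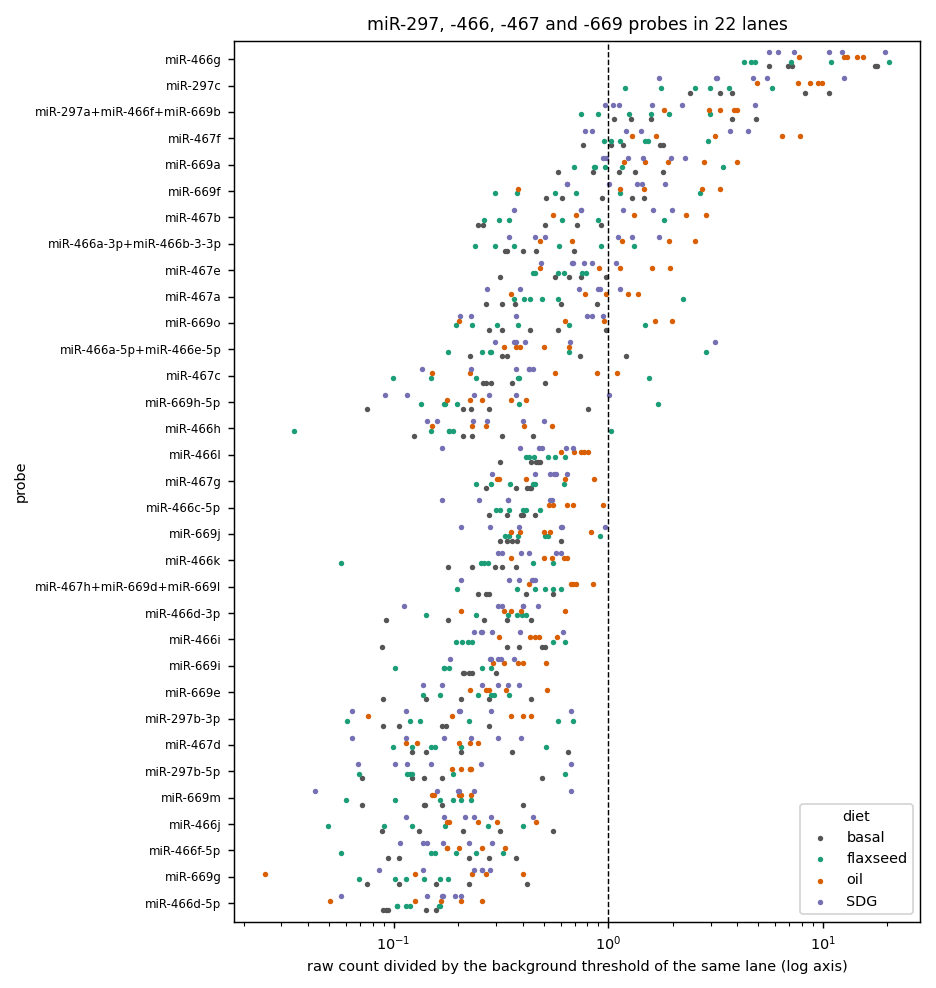
Raw count of each of the 33 probes divided by the background threshold of its lane, on a log axis, with 1 point per lane coloured by diet and the dashed line at the threshold. All points of miR-466g and miR-297c lie right of the line, and 18 probes have no point beyond it.

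Low detection was shared with some other clustered miRNAs and not with others. Of 15 probes of miR-290 to miR-295 and miR-302, a cluster pair of embryonic stem cells, 11 were above background in no lane, and of 17 probes of an X-linked cluster known from testis, 15. The imprinted Dlk1-Dio3 region gave 9 of 33 probes above background in no lane, and 9 of 33 in all lanes. A list of 4 other miRNAs was chosen as a GU-repeat comparison, without a check of their sequences. Of these, miR-1186 was above background in all 22 lanes, miR-1187 in 2, and miR-468 and miR-574-5p in 1 each. These lists differ in size and in probe background, and no test between them was made.

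The share of members above background varied between lanes of the same diet, most widely on flaxseed. It was 15.2% ± 2.14 (SD, n = 5) on the basal diet, 16.7% ± 13.1 (SD, n = 6) on flaxseed, 26.1% ± 9.24 (SD, n = 5) on oil and 19.7% ± 8.30 (SD, n = 6) on SDG. The basal lanes had 5, 6, 4, 5 and 5 members above background and the oil lanes 9, 6, 12, 11 and 5. Flaxseed 3 had 14, while the other flaxseed lanes had 2 to 5, and the SDG lanes ranged from 3 to 10 with a median of 6.5. The diets overlapped. Over all 566 mouse probes the share was 37.8% ± 4.18 on basal, 37.3% ± 5.23 on flaxseed, 42.7% ± 4.10 on oil and 39.0% ± 5.86 on SDG, so that the oil mean was the highest there too. As a score over chosen members, the share was not tested.

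Flaxseed 3, with the most members above background, also had the lowest threshold of all lanes, 17.5 counts, and was among the 3 lanes led by miR-720; without it the flaxseed mean was 11.5%, below the basal mean instead of above it. The part of the threshold in the result was not tested.

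**Figure D2:**
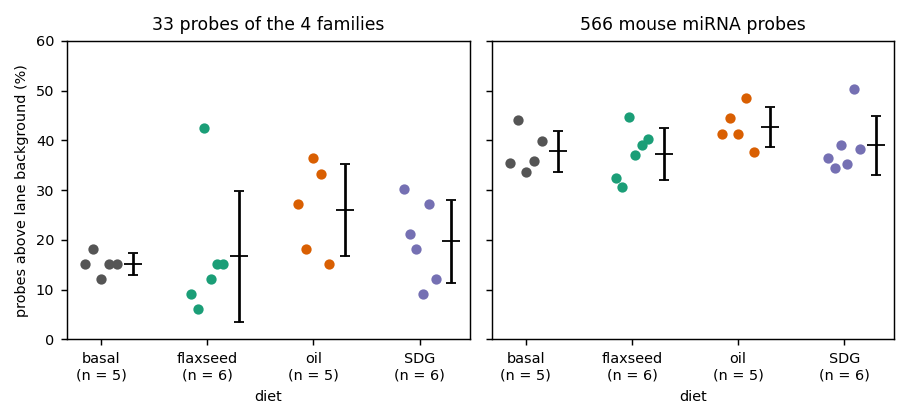
Percent of probes above lane background by diet for the 33 probes of the 4 families (left) and for all 566 mouse probes (right), with 1 point per lane and the mean ± SD. Flaxseed 3 stands at 42.4% on the left against 6.06 to 15.2% in the other flaxseed lanes, and the diets overlap on both sides.

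All 33 probes together held less than 1% of the endogenous counts in every lane. Their sum ran from 0.150% of the lane's counts in SDG 5 (95% exact binomial interval 0.141 to 0.160%) to 0.539% in SDG 1 (0.511 to 0.568%); these intervals cover counting error only. By diet it was 0.246% ± 0.0457 (SD, n = 5) on basal, 0.225% ± 0.0514 (SD, n = 6) on flaxseed, 0.342% ± 0.112 (SD, n = 5) on oil and 0.306% ± 0.143 (SD, n = 6) on SDG. The summed raw count was highest in oil 3, at 2846, and lowest in SDG 6, at 702. The share is of a total that includes miR-720, which enlarges the total in 3 lanes. The sums also hold background counts, as most members lay under the threshold. The mean negative control ran from 8.25 counts in flaxseed 3 to 28.25 in flaxseed 1. After its subtraction the share was 0.154% on basal and 0.119% on flaxseed, so the uncorrected shares are not a measure of abundance alone. In each lane 60.5 to 79.1% of the members' counts came from the 8 probes that were above background in at least 5 lanes.

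Differences between diets were tested for these 8 probes: miR-297c, miR-466g, miR-467b, miR-467f, miR-669a, miR-669f and the joined probes miR-297a+miR-466f+miR-669b and miR-466a-3p+miR-466b-3-3p. They were fitted with all 254 probes that passed the same filter. A level is given as log2 CPM, counts on a common scale after TMM normalization, and a log2 fold change is a difference in that fit. The other 25 probes were above background in fewer than 5 lanes and did not enter this fit. Because the filter looks across diets, a probe can pass it through the diets where it is high: the miR-466a-3p+miR-466b-3-3p probe and miR-467b were each above background in 0 basal, 1 flaxseed, 3 oil and 3 SDG lanes. With a filter of 11 lanes both dropped out and 6 members were left, so counts and medians over the 8 members are given as a description. As each lane holds whole-gland RNA, fewer cells of a type and less of a miRNA per cell cannot be told apart.

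No member passed an adjusted p of 0.05 in edgeR's quasi-likelihood test in any of the 6 comparisons of diets, or in the joint test of any diet against basal (0 of 8 in each). Nor did any of the 254 probes, so the background share was 0% in each comparison. At an unadjusted p under 0.05 the joint test held 0 members, against 14.2% of all tested probes. No member had every lane of 1 diet above or below every lane of another in log2 CPM (0 of 8 in each comparison). Over all 254 probes such separation, in either direction, was seen for 1.97% in oil against basal, 3.94% in flaxseed against oil, 2.36% in oil against SDG and 0% in the others.

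**Figure D3:**
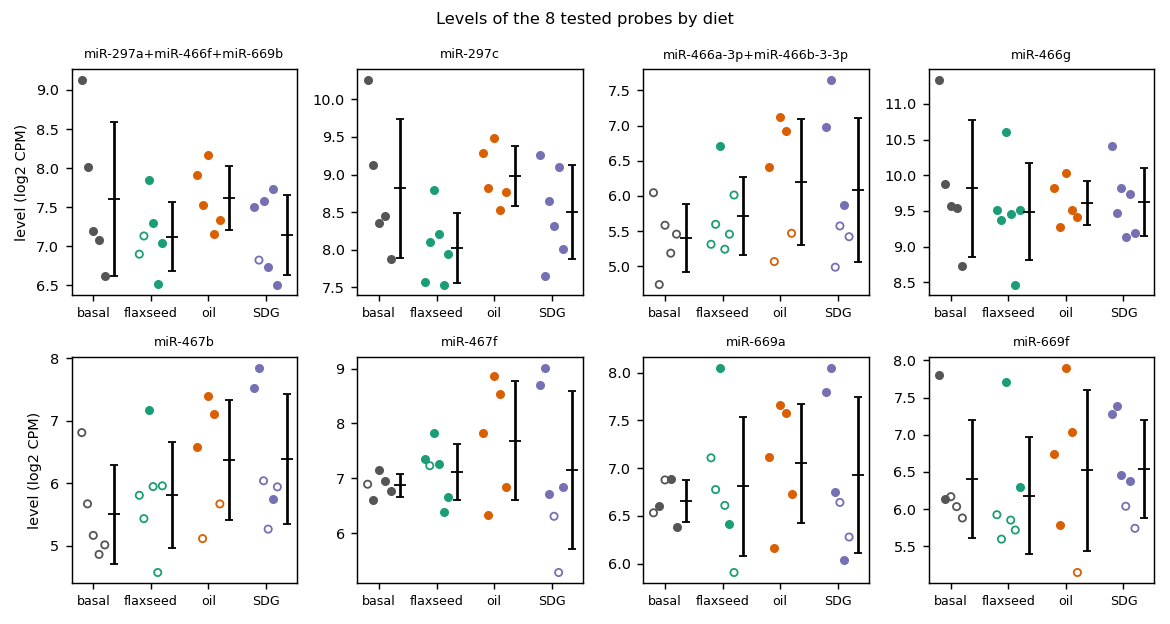
Level of each of the 8 tested probes (log2 CPM) by diet, with 1 point per lane, filled where the raw count was above the lane's background and open where it was not, and the mean ± SD beside the points. The diets overlap for every probe, and the basal lane that stands highest for miR-297c, the miR-297a joined probe and miR-466g is basal 1.

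In whole flaxseed against the basal diet the smallest p values of the members were those of miR-297c and the joined miR-297a probe, and neither passed the adjusted threshold. miR-297c counted 185, 230, 136, 191 and 202 in the basal lanes, and 80 at the lowest, 106.5 at the median and 148 at the highest in the flaxseed lanes. The counts overlapped in 1 basal lane, basal 3. In levels miR-297c stood at 8.82 ± 0.93 (SD, n = 5) on basal and 8.03 ± 0.47 (SD, n = 6) on flaxseed, a log2 fold change of -0.98 ± 0.37 (SE; unadjusted p = 0.0156, edgeR adjusted p = 0.554).

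The joined probe miR-297a+miR-466f+miR-669b counted 84, 105, 60, 73 and 84 on basal and 50 to 78, with a median of 55.0, on flaxseed. These groups overlapped, and the log2 fold change was -0.70 ± 0.37 (SE; edgeR adjusted p = 0.570). Both values rested largely on basal 1, whose level was the highest of all lanes for both probes: without it they were -0.46 and -0.16. Of the 8 members 1 had an unadjusted p under 0.05, against 8.66% of the 254 probes, and 4 had a log2 fold change above 0, against 55.1%. The median log2 fold change was 0.05 over the members and 0.04 over all tested probes.

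In flaxseed oil against the basal diet the smallest p values of the members were those of the miR-466a-3p+miR-466b-3-3p probe and miR-467f, and neither passed the adjusted threshold. The miR-466a-3p+miR-466b-3-3p probe counted 9, 10, 19, 19 and 37 in the basal lanes, none above background, and 45, 27, 93, 88 and 19 in the oil lanes, of which oil 1, oil 3 and oil 4 were above background. Oil 2 and oil 6 lay within the basal range. The levels were 5.40 ± 0.48 (SD, n = 5) on basal and 6.20 ± 0.90 (SD, n = 5) on oil, with a log2 fold change of 1.05 ± 0.49 (SE; unadjusted p = 0.0458, edgeR adjusted p = 0.303).

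miR-467f, whose gene lies outside Sfmbt2, counted 17, 39, 58, 67 and 93 on basal and 122, 66, 312, 272 and 51 on oil. Again oil 1, oil 3 and oil 4 exceeded every basal lane and the other two did not. Its levels were 6.87 ± 0.20 (SD, n = 5) on basal and 7.68 ± 1.08 (SD, n = 5) on oil, with a log2 fold change of 1.12 ± 0.57 (SE; edgeR adjusted p = 0.312). At an unadjusted p under 0.05 stood 1 of the 8 members, against 16.1% of all tested probes, and 5 had a log2 fold change above 0, against 47.6%. The members' median was 0.41 and that of all tested probes -0.03. Of the 8 members, the miR-466a-3p+miR-466b-3-3p probe and miR-467b were above background in no basal lane. Over the alternatives the members' median ran from -0.34, with the lymphocyte covariate described further on, to 0.87.

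The lignan SDG against the basal diet gave its smallest p values among the members for the same joined miR-466a probe and for miR-467b, both of which entered the test through oil, SDG and flaxseed lanes and no basal lane. The miR-466a-3p+miR-466b-3-3p probe counted 12 at the lowest, 21.5 at the median and 81 at the highest in the SDG lanes, where SDG 1 (39) and SDG 2 (81) exceeded every basal lane. Its log2 fold change was 1.02 ± 0.49 (SE; unadjusted p = 0.0467, edgeR adjusted p = 0.839). Without SDG 2 this value was 0.53.

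miR-467b counted 16, 20, 14, 15 and 27 on basal and 16 to 93 on SDG, with a median of 24.0. Only SDG 1 (57) and SDG 2 (93) exceeded every basal lane, and no basal lane was above background for this probe. The levels were 5.51 ± 0.79 (SD, n = 5) and 6.40 ± 1.04 (SD, n = 6), with a log2 fold change of 1.18 ± 0.56 (SE; unadjusted p = 0.0479, edgeR adjusted p = 0.839), or 0.76 without SDG 2. These 2 members at an unadjusted p under 0.05 stand beside 5.12% of all tested probes. Both passed the filter through no basal lane, so their number is not read as an excess. Log2 fold changes were above 0 for 5 of 8 members, against 49.2%, with medians of 0.30 over the members and -0.01 over all. The members' median was -0.13 with the 11-lane filter, -0.11 with positive control scaling and -0.50 with the lymphocyte covariate.

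Whole flaxseed against oil gave lower values of miR-297c, and its raw counts did not overlap: oil lanes held 337, 378, 481, 268 and 195, and the flaxseed lanes at most 148. Such complete separation of raw counts, flaxseed below oil, was seen for 1.57% of the 254 probes. The levels, 8.03 ± 0.47 (SD, n = 6) on flaxseed and 8.98 ± 0.40 (SD, n = 5) on oil, did overlap, since flaxseed 3 stood at 8.79 and the lowest oil lane at 8.52. The log2 fold change was -0.94 ± 0.37 (SE; 95% interval -1.71 to -0.18; unadjusted p = 0.0182, edgeR adjusted p = 0.129). It passed the threshold under 3 of the alternatives: with DESeq2 (-1.02, DESeq2 adjusted p = 0.0310), with scaling by the positive controls (-1.35, edgeR adjusted p = 0.0245) and with basal 1, flaxseed 3 and SDG 5 left out (-1.20, edgeR adjusted p = 0.0336). Of all tested probes these settings called 11.8%, 1.97% and 7.09%. Scaling by the housekeeping mRNAs turned it to 0.54, while the median of all tested probes moved to 1.13.

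Next by p in this comparison was miR-467f, which counted 43 to 76 on flaxseed, with a median of 62.0, against 51 to 312 on oil. Its log2 fold change of -0.81 ± 0.53 (SE; edgeR adjusted p = 0.368) was -0.47 without oil 3. At an unadjusted p under 0.05 stood 1 of 8 members, against 23.6% of all tested probes. All 8 members had a log2 fold change below 0, whereas 57.1% of the tested probes had one above 0. Among the 8, miR-466g stood at -0.02. The miR-466a-3p+miR-466b-3-3p probe and miR-467b passed the filter with 3 oil and 3 SDG lanes but 1 flaxseed lane. The filter itself favoured a lower flaxseed value for them, so 8 of 8 is a description. The members were read in the same lanes, so their signs are not independent. In the fit without the filter, 13 of all 33 members were above 0. The matching share over all 599 probes was not taken, and 18 of the 33 members were above background in no lane. This count is therefore a description without a baseline. The medians were -0.59 over the 8 members and 0.08 over all tested probes. Under housekeeping scaling the members' median was 0.94, below the 1.13 of all probes. With the level of 2 lymphocyte miRNAs as a covariate, described further on, 6 of 8 members were above 0, against 61.4% of all tested probes, with a median of 0.36. The summed level of the 5 muscle markers (miR-1, miR-133a, miR-133b, miR-206 and miR-499) differed without overlap between the same lanes, at 12.65 to 15.83 log2 CPM on flaxseed and 8.64 to 11.97 on oil, and ran from 8.87 to 17.52 on basal and 8.94 to 15.92 on SDG. All 5 were detected in at least 7 lanes. The median count was 1313.5 for miR-1 and 20.5 to 157.5 for the other muscle markers, so the sum mostly follows miR-1. The summed level of the endothelial miR-126-3p and miR-126-5p also differed without overlap, at 15.50 to 16.10 on flaxseed and 15.13 to 15.44 on oil. It ran from 14.60 to 15.71 on basal and 14.98 to 15.80 on SDG. The luminal, basal epithelial, adipocyte, lymphocyte, erythrocyte and stromal marker sums overlapped between flaxseed and oil. The part of any of these lists in the members' values was not tested.

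Whole flaxseed against SDG likewise gave 8 of 8 log2 fold changes below 0, where 53.9% of the tested probes were above 0. In the fit without the filter, 7 of all 33 members were above 0. The matching share over all 599 probes was not taken here either, and 18 of the 33 members were above background in no lane. The count is given as a description. The comparisons of flaxseed with oil and with SDG share the flaxseed lanes. Here too the 8 include the miR-466a-3p+miR-466b-3-3p probe and miR-467b, which passed the filter with 3 SDG lanes but 1 flaxseed lane. With the lymphocyte covariate 5 of 8 were above 0, against 54.3% of all tested probes. The members' median was -0.42 and that of all tested probes 0.03, or 0.06 over the members with that covariate, and no member had an unadjusted p under 0.05, against 5.12% of all tested probes. The smallest p values were those of miR-467b, with a log2 fold change of -0.76 ± 0.51 (SE; edgeR adjusted p = 0.932), and of miR-297c, with -0.53 ± 0.36 (SE; edgeR adjusted p = 0.932). For miR-467b the value was -0.35 without SDG 2 and -1.15 without flaxseed 3.

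Oil against SDG gave the smallest differences of the families. The log2 fold changes of the 8 members lay between -0.09 and 0.46, with a median of 0.11 against 0.01 over all tested probes, and 6 were above 0, against 51.2%. No member had an unadjusted p under 0.05, against 7.48% of all tested probes. The joined miR-297a probe had a log2 fold change of 0.46 ± 0.37 (SE; 95% interval -0.30 to 1.22; edgeR adjusted p = 0.809), and miR-297c 0.42 ± 0.37 (SE; 95% interval -0.34 to 1.18; edgeR adjusted p = 0.819). Without oil 3 these were 0.30 and 0.27. With scaling by the positive controls they were 1.24 and 1.21 (edgeR adjusted p = 0.0159 and 0.0172, with 6.69% of all tested probes called), where the median of all tested probes moved to 0.79.

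**Figure D4:**
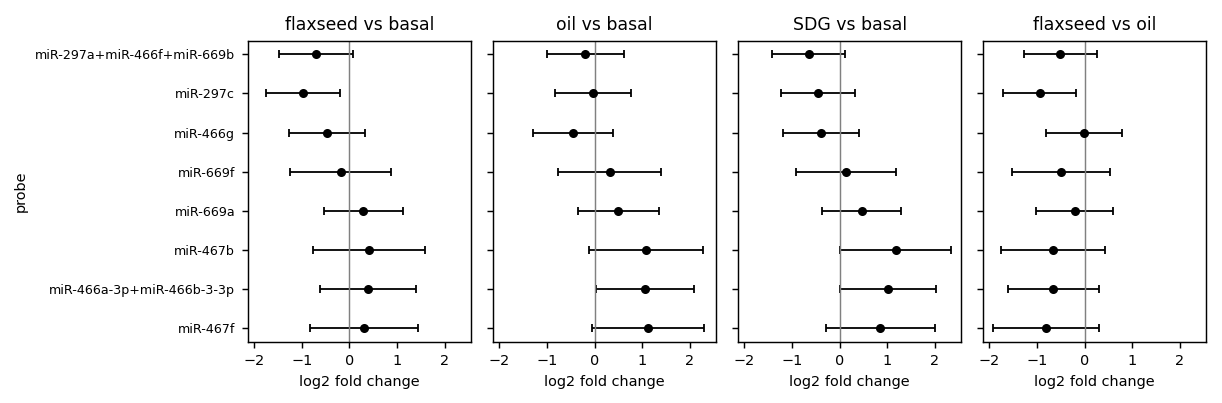
Log2 fold change of each of the 8 tested probes with its 95% interval in 4 comparisons, the first diet named over the second. The intervals of miR-297c lie below 0 in flaxseed vs basal and flaxseed vs oil before adjustment, and the miR-467 and miR-466a probes have their largest values in oil and SDG vs basal.

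The members fell into unlike patterns across single lanes. The 5 lanes with the highest levels of miR-467f were SDG 2, oil 3, SDG 1, oil 4 and oil 1, and the same 5 lanes were highest for miR-150 and for miR-142-3p, miRNAs of lymphocytes and other blood cells. For miR-466a-3p+miR-466b-3-3p, miR-467b and miR-669a, 4 of the 5 highest lanes were among these, with flaxseed 3 as the fifth. For miR-669f and miR-297c it was 3 of 5, and for miR-466g and the joined miR-297a probe 2 of 5. The lane with the highest level of miR-297c, miR-466g and the joined miR-297a probe was basal 1. Its raw counts of these probes, 185, 392 and 84, lay within the range of the other basal lanes. In this lane miR-720 held 65.4% of endogenous counts, and its part in these levels was not tested.

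miR-150 stood at 14.01 to 15.25 log2 CPM in those 5 lanes and at 11.08 to 12.23 in the other 17. In miR-142-3p the 5 lanes reached 15.01 to 16.20, and flaxseed 3 followed at 14.73. The summed level of the 3 lymphocyte markers ran from 12.60 to 13.06 on basal, 12.95 to 14.99 on flaxseed, 12.69 to 16.72 on oil and 12.87 to 16.66 on SDG, and all 3 were above background in every lane. The third marker, miR-142-5p, varied little, from 93 to 220 counts, where miR-150 ran from 638 to 21966 and miR-142-3p from 207 to 50442. A further chosen marker, miR-155, matched no probe by name. The 5 lanes highest for miR-150 and miR-142-3p belong to the oil and SDG diets alone.

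With the mean log2 CPM of these 2 lymphocyte miRNAs as a covariate, without miR-142-5p and in a fit added after the data had been seen, the log2 fold changes that had led in oil and SDG against basal lay near or below 0. In oil against basal the miR-466a-3p+miR-466b-3-3p probe changed from 1.05 to -0.23 and miR-467f from 1.12 to -0.46. In SDG against basal the miR-466a-3p+miR-466b-3-3p probe changed from 1.02 to 0.03 and miR-467b from 1.18 to 0.15. For miR-297c in flaxseed against oil the value was -0.87 with the covariate and -0.94 without it. The lanes highest for both lymphocyte miRNAs belong to oil and SDG alone, so this fit cannot tell the covariate from diet. The part of the 2 lymphocyte miRNAs in the members' values was not tested.

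**Figure D5:**
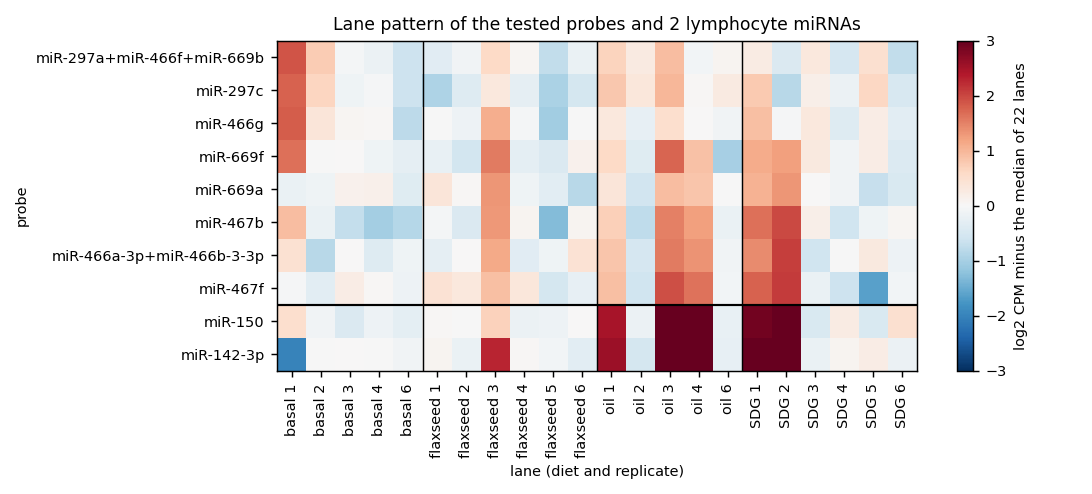
Level of the 8 tested probes and of 2 lymphocyte miRNAs in each of 22 lanes, as log2 CPM minus the median of the probe, with colours that saturate at 3 above or below it. Oil 1, oil 3, oil 4, SDG 1 and SDG 2 are high for miR-150, miR-142-3p and miR-467f. Basal 1, a lane led by miR-720, is highest for the top 3 probes.

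The raw counts of miR-466g were among the most even of the panel. They ran from 317 to 410 on basal, 259 to 357 on flaxseed, 308 to 699 on oil and 217 to 429 on SDG, a 3.22-fold range over 22 lanes, where the median probe had an 11.3-fold range and the total endogenous count a 2.93-fold range. Its coefficient of variation was 29.6%, and 12 of the 254 tested probes had a lower one. At the other end, miR-467f had a 20.8-fold range and a coefficient of variation of 89.6%. In levels, miR-466g was 9.81 ± 0.96 (SD, n = 5) on basal, 9.49 ± 0.68 (SD, n = 6) on flaxseed, 9.61 ± 0.31 (SD, n = 5) on oil and 9.63 ± 0.48 (SD, n = 6) on SDG.

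miR-669a counted 13, 39, 48, 64 and 71 on basal, 25 to 67 on flaxseed, 74, 59, 135, 139 and 47 on oil and 26 to 107 on SDG. It was above background in 3 of 5 basal, 2 of 6 flaxseed, 5 of 5 oil and 4 of 6 SDG lanes. These numbers depend on the thresholds: 48 counts in basal 3 lay under 56.4, and 47 in oil 6 lay above 39.6. miR-669f counted 33, 28, 29, 35 and 50 on basal, 18 to 47 on flaxseed, 57, 45, 160, 95 and 15 on oil and 19 to 67 on SDG. Both had their 2 highest raw counts in oil 3 and oil 4, and all diets overlapped. Among the untested members, the miR-466a-5p+miR-466e-5p probe was above background in basal 1, flaxseed 3 and SDG 5 alone, with 27, 50 and 56 counts, and these are the 3 lanes led by miR-720.

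When all 33 members were kept in the fit without the filter, 0 of 33 passed an adjusted p of 0.05 in edgeR in any comparison. Of all 599 probes 1 passed (0.167%), in oil against basal, and 0% in the others. At an unadjusted p under 0.05 stood 1 member in flaxseed against basal (2.67% of all probes), 4 in oil against basal (8.85%) and 2 in SDG against basal (2.5%). In flaxseed against oil there were 3 (12.9%), in flaxseed against SDG 0 (2.34%), in oil against SDG 0 (7.01%) and in the joint test 3 (7.35%).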

How the data were processed

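Per the labels, the authors deposited raw counts per probe for each nCounter lane, unscaled; the software that made them is not given in the sources used here. A second deposited table holds log2 values that the authors scaled by a rule not given in the sources used here; it has 238 miRNAs, 7 of the 8 tested members among them, and served as an alternative. Only the 599 endogenous probes (566 mouse, 33 viral) entered totals and tests.

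Testing required counts above the lane's background (negative control mean plus 2 SD, 8 controls) in at least 5 of 22 lanes. The counts of the resulting 254 probes from all lanes were fitted with edgeR 4.0.16 (R 4.3.3; quasi-likelihood, TMM scaling, diet as factor), with Benjamini-Hochberg adjustment over all tested probes in each comparison and a threshold of 0.05. Levels are log2 CPM with 1 count added. The fit was tested on simulated counts. Alternatives used DESeq2 1.42.0, limma 3.58.1, other scalings and filters, other background thresholds, replicate number as a block and each lane left out. Fold changes are given for the 2 members with the smallest p in each comparison. Gene locations and sequences came from RefSeq tables, where 5 of 39 names had a mature sequence.

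Each lane is 1 mouse, so p values measure the spread between mice of a diet. The members and lists were chosen with earlier results of these data known.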

Additional observations from a re-analysis of the deposited data

Results flagged for a closer look

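Among 40 sets of lanes (the level of each of the 8 tested probes, the share above background and the summed share, in each diet), 3 held a lane far from the others by Dixon's criterion, which chance alone gives in about 1 of 20. miR-669f stood at 7.81 log2 CPM in basal 1, against 5.88 to 6.17 in the other basal lanes. It stood at 7.71 in flaxseed 3, against 5.60 to 6.29 in the other flaxseed lanes. The share of members above background was 42.4% in flaxseed 3, against 6.06 to 15.2% in the other flaxseed lanes. Both lanes are among the 3 led by miR-720, with 65.4% of endogenous counts in basal 1 and 53.7% in flaxseed 3; the raw counts of miR-669f there, 33 and 47, were within or near the range of the other lanes of the same diet. The part of miR-720 in these values was not tested.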

How the results depend on the processing

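Of 265 repeated counts of called members, 259 were 0 as reported. The exceptions were 1 member in flaxseed against oil with DESeq2, with positive control scaling and after removal of basal 1, flaxseed 3 and SDG 5 (miR-297c each time), 2 in oil against SDG and 2 in the joint test with positive control scaling (miR-297c and the joined miR-297a probe, with 17 and 6 of 254 probes called), and 3 in flaxseed against basal with housekeeping scaling (miR-466a-3p+miR-466b-3-3p, miR-467b and miR-669a, higher). Housekeeping scaling moved the median of all tested probes to 1.37 in flaxseed against basal, 1.13 in flaxseed against oil and 0.90 in flaxseed against SDG, and called 62 of 254 probes in the first. Under it miR-297c was 1.09 and the joined miR-297a probe 1.28 in flaxseed against basal, miR-297c 0.54 and miR-467f 0.59 in flaxseed against oil, and miR-467b 1.01 and miR-297c 0.73 in flaxseed against SDG. With the lymphocyte covariate, oil against basal gave -0.23 for miR-466a-3p+miR-466b-3-3p and -0.46 for miR-467f, and flaxseed against oil 0.46 for miR-467f. The cause of these changes was not tested. The other 441 of 450 repeated log2 fold changes of named members kept their direction, all 264 without 1 lane among them. The adjusted p of miR-297c in flaxseed against oil ran from 0.0245 to 0.573 over the alternatives. DESeq2 called 30 of 254 probes there, positive control scaling 5 and the removal of the 3 lanes 18, where edgeR on all lanes called 0.

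Leaving out each lane in turn gave 0 called members in every comparison. The share above background then ran from 14.4 to 15.9% on basal, 11.5 to 18.8% on flaxseed, 23.5 to 28.8% on oil and 17.6 to 21.8% on SDG, and the summed share from 0.236 to 0.264% on basal, 0.212 to 0.237% on flaxseed, 0.299 to 0.370% on oil and 0.259 to 0.337% on SDG. With the mean negative control as threshold the share above background was 32.1% on basal, 36.9% on flaxseed, 52.7% on oil and 42.4% on SDG, and with the mean plus 3 SD 12.1% on basal. The summed share on basal was 0.305% with TMM scaling, 0.355% without miR-720 in the total and 0.154% after subtraction of the mean negative control, which gave 0.119% on flaxseed.

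Replicate numbers did not pair lanes across diets: over 31 same-numbered pairs the correlation of deviations ran from -0.62 to 0.535 with a median of 0.0145, 12 were above 0.1, and 3 of 22 lanes correlated best with their own number. With replicate number as a block 0 members were called, and miR-297c in flaxseed against oil was -0.89. The cartridge and run of each lane are not given in the sources used here. A run batch, also one that runs along with diet, could therefore not be checked. The 25 untested members were above background in at most 4 lanes, which limits what can be said of them.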
